A study of Mus musculus with 2 samples.

Results

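The barrier lipid genes Alox12b, Elovl1, Elovl4, Abca12, Nkpd1 and Fam57a were followed across spatial transcriptomes of mouse tongue. They were chosen by name with earlier results of these data known, as were the gene lists used below. Counts of their members that were higher or lower are therefore descriptions. All 6 were among the 865 genes of the table deposited for the WT section, and 4 of them (Alox12b, Elovl1, Nkpd1 and Fam57a) were among the 298 genes of the table deposited for the H3K36M section. Together the tables held 879 genes, 284 of them in both. The WT section came from a mouse with the genotype Krt14-Cre(-); LSL-H3K36M, and the H3K36M section from a mouse with the genotype Krt14-Cre(+); LSL-H3K36M. Both mice thus carried the LSL mutant histone allele, which stays silent without Cre. Both had received 4NQO, a carcinogen that causes lesions of the oral epithelium. Cre under the Krt14 promoter acts in basal keratinocytes and the cells that descend from them. Neither strain nor age is given in the sources used here. With 1 section per genotype there was no spread between animals and no test between genotypes, and intervals below are 95% intervals for counting error alone.

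Cornified epithelia waterproof themselves with ceramides that carry very long acyl chains. Elongases lengthen the fatty acids, ceramide synthases join them to sphingoid bases, and an ABC transporter loads the glucosylated products into lamellar granules. Lipoxygenases then oxidise the linoleate carried by these ceramides, a step needed to bind them to the protein envelope. In humans, mutations of ABCA12 or ALOX12B cause ichthyosis.

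Depth differed between the sections. The clustered spots held 2283314 unique molecular identifiers (UMIs, 1 for each captured transcript molecule) for WT and 570807 for H3K36M. WT clusters 1 to 3 took 37.5%, 59.3% and 3.19% of the WT UMIs, and H3K36M clusters 1 to 4 took 3.03%, 53.7%, 34.0% and 9.29% of theirs. Rates are given as UMIs per 10000 UMIs of a cluster. The listed genes had a deposited average of at least 1 in some cluster. An average of 1 equals a rate of 1.99 UMIs per 10000 for WT and 7.24 for H3K36M. In averages over spots, fewer cells of a type and less RNA per cell cannot be told apart.

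The regions in which the 6 genes were read can be described by their markers. Of 31 listed granular layer and envelope protein genes, 30 were higher in WT cluster 1 at a deposited p-value under 0.05, against 33.2% of all listed genes, and their median was 1.69 on the log2 scale in the authors' deposited table. Of 24 such genes listed for the H3K36M section, 22 were higher in cluster 3, against 23.5% of all listed genes, and their median was 1.52 in the authors' deposited table. Of these 24, 12 were listed through cluster 3 alone, as were 5 of the 7 squamous keratin genes below, so that their place there was fixed by the listing. Krt4 and Krt13, keratins of the tongue surface, were listed in both tables. The 10 skeletal muscle genes in both tables took 27.4, 22.6 and 59.2 UMIs per 10000 in WT clusters 1 to 3, and 153, 83.9, 37.0 and 48.5 in H3K36M clusters 1 to 4. Of 11 squamous keratin genes, 8 were listed for WT and 8 were higher in cluster 1, and 7 of 7 listed for H3K36M were higher in cluster 3. Of 8 listed basal keratinocyte genes, 6 were higher in WT cluster 2, against 43% of all listed genes. Of the 3 listed for H3K36M, Krt5 was higher in cluster 2 and Krt14 in cluster 4, against 33.9% and 18.5% of all listed genes. Krt14 was lower in cluster 2 and Krt5 in cluster 3, against 30.5% and 34.6% of all listed genes, so these genes differed within cluster 2. Krt15 was called in no cluster. The immune markers listed were Cd74 and H2-Ab1, of 13 and in the WT table, and the salivary marker listed was Ltf, of 16 and in the H3K36M table. Of 13 sebaceous and adipose markers and 10 fibroblast and endothelial markers, 0 were listed in either table.

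Sequences around an annotated transcript start of the 4 genes listed for both sections are shown because these genes were read in both genotypes. Each line is the RefSeq window on GRCm38.p6 from 250 bases before to 50 bases after an annotated transcript start, 5′ to 3′ on the gene's strand. Capitals mark matches to GGGNGTG, a motif of Kruppel-like factors, on either strand.
Alox12b (chr11:69156822-69157121, plus strand): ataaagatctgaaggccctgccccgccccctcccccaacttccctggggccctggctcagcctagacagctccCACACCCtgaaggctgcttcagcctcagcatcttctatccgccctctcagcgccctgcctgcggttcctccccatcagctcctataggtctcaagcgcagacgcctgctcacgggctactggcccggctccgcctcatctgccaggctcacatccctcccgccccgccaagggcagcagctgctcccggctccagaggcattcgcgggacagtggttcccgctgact
Elovl1 (chr4:118427843-118428142, plus strand): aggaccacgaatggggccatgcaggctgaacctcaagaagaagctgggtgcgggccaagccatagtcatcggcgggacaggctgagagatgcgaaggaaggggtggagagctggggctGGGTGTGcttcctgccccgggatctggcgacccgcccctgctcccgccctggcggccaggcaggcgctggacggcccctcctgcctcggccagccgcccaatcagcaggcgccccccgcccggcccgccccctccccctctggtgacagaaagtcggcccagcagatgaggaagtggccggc
Nkpd1 (chr7:19518481-19518780, plus strand): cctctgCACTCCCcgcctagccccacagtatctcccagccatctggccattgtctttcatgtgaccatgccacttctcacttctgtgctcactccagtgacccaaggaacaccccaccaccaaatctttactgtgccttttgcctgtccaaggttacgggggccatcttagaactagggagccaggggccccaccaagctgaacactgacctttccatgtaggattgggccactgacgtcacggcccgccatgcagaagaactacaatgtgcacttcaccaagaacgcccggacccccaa
Fam57a (chr11:76179421-76179720, plus strand): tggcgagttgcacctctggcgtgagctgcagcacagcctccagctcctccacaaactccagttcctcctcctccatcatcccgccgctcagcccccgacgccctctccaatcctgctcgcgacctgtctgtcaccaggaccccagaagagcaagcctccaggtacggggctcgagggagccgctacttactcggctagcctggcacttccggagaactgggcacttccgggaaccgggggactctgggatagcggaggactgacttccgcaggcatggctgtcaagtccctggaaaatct
Alox12b, Elovl1 and Nkpd1 held 1 match each, with the first base at -177, -132 and -244 from the start. The Nkpd1 window lies inside the annotated span of the gene (19517838 to 19525056) and not upstream of it. The motif occurred in 29.2% of all 32851 RefSeq windows of the same length. The window shown for Fam57a held none. Neither the AP-1 motif TGANTCA (7.81% of windows) nor the Grainyhead-like motif AACCNGTT (2.09% of windows) was found in any window of the 6 genes. RefSeq gives Fam57a as Tlcd3a, and a second window each for Elovl1 and Fam57a. The second Elovl1 window also held 1 Kruppel-like match. A match describes letters in these windows and not a bound site.

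In the WT section, the 6 genes had their highest rates in cluster 1, the envelope-rich region, and their lowest in cluster 2. Their summed rates in clusters 1 to 3 were 43.8 UMIs per 10000 (42.4 to 45.3), 17.9 (17.2 to 18.6) and 27.9 (24.2 to 32.0). In the authors' deposited table, 6 of 6 were higher in cluster 1 at a p-value under 0.05, where 33.2% of all listed genes were higher and 43.7% lower. In cluster 2, 6 of 6 were lower in the authors' deposited table, against 34.6% of all listed genes lower and 43% higher. In cluster 3, 0 of 6 were called in either direction, against 3.93% of listed genes higher and 1.5% lower. The median log2 fold change of the 6 in cluster 1 was 1.27, against -0.18 over all 865 genes, in the authors' deposited table. Abca12 passed the listing limit through cluster 1 alone, so its highest place there was fixed by the listing. Neither the deposited p-values nor the intervals allow for clusters that were defined by these same counts.

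**Figure D1:**
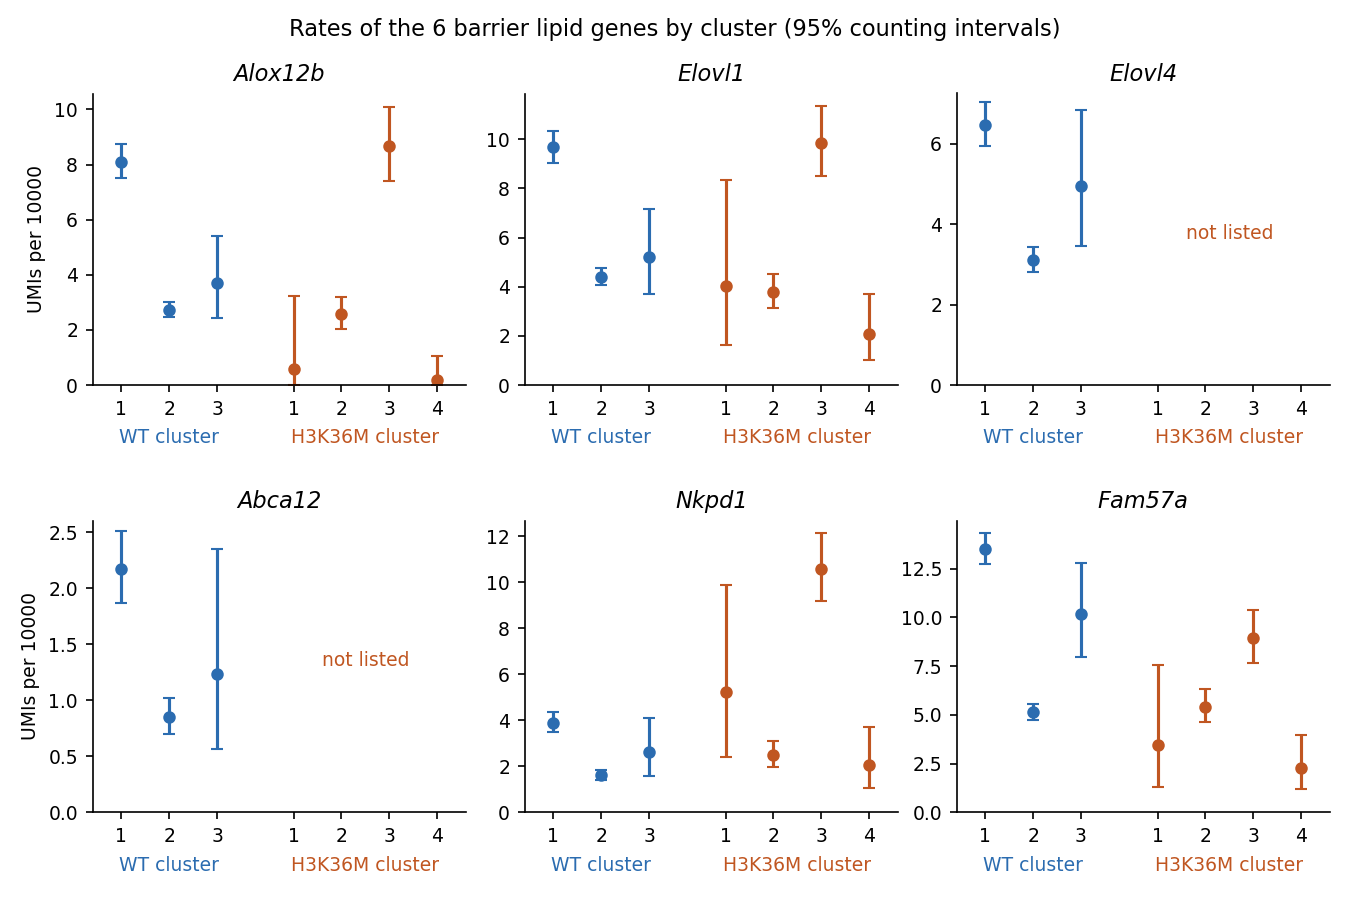
UMIs per 10000 UMIs of each cluster (vertical axis, a scale for each gene) for the 6 genes in 3 WT clusters (blue) and 4 H3K36M clusters (orange), with points for the rate and bars for exact Poisson 95% intervals. WT cluster 1 and H3K36M cluster 3 hold the highest point of each gene listed for their section (6 and 4 genes). The listing fixed this for the 4 genes in H3K36M cluster 3 and for Abca12 in WT cluster 1. Nkpd1 stands at 10.6 in H3K36M cluster 3 against 3.90 in WT cluster 1, a direction that the listing also fixed.

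The elongases act early in the pathway. Elovl1, which extends saturated fatty acids and lies on chromosome 4 from 118428093 to 118432953 (plus strand, GRCm38), had 828, 598 and 38 UMIs in WT clusters 1 to 3. Its rates were 9.67 (9.02 to 10.4), 4.42 (4.07 to 4.78) and 5.22 (3.70 to 7.17) UMIs per 10000. Cluster 1 stood clear of both others, while clusters 2 and 3 overlapped, and the ratio of cluster 1 to cluster 2 was 2.19 (1.97 to 2.44). Elovl4, which makes the longest acyl chains of barrier ceramides and lies on chromosome 9 from 83778692 to 83806277 (minus strand), had 555, 422 and 36 UMIs. Its rates were 6.48 (5.95 to 7.04), 3.12 (2.83 to 3.43) and 4.95 (3.46 to 6.85). The ratio of cluster 1 to cluster 2 was 2.08 (1.83 to 2.37), and the interval of cluster 3 overlapped that of cluster 1. The pair thus had similar ratios, with intervals that overlapped.

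Fam57a and Nkpd1 are less well characterised. Fam57a encodes a membrane protein with a TLC domain, the domain that ceramide synthases carry, and lies on chromosome 11 from 76179671 to 76214827 (plus strand). It had 1156, 695 and 74 UMIs in WT clusters 1 to 3, at rates of 13.5 (12.7 to 14.3), 5.13 (4.76 to 5.53) and 10.2 (7.98 to 12.8). Cluster 3 lay well above cluster 2, with a ratio of 1.98 (1.54 to 2.52), and cluster 1 stood above cluster 2 by 2.63 (2.39 to 2.89). Nkpd1 encodes a protein with a P-loop NTPase domain of the KAP family and lies on chromosome 7 from 19517838 to 19525056 (plus strand). It had 334, 218 and 19 UMIs, at rates of 3.90 (3.49 to 4.34), 1.61 (1.40 to 1.84) and 2.61 (1.57 to 4.08), and its ratio of cluster 1 to cluster 2 was 2.42 (2.04 to 2.89). Cluster 3 of Nkpd1 overlapped both others. The annotated span of Fam57a lies within that of Glod4 on the opposite strand and overlaps Gemin4 there, and Elovl1 shares 53 bases with Cdc20. The deposited quality measures give reads mapped antisense to genes as a separate fraction, so the strand of reads was known. No source used here says whether such reads were left out of the counts. Whether the values of Fam57a and Elovl1 include reads of these neighbours was not tested.

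The transporter and the lipoxygenase act later. Abca12, the lipid transporter of lamellar granules, lies on chromosome 1 from 71242276 to 71414910 (minus strand) and had 186, 115 and 9 UMIs. Its rates were 2.17 (1.87 to 2.51), 0.849 (0.701 to 1.02) and 1.24 (0.565 to 2.35), and the 9 UMIs of cluster 3 left it between the other clusters with an interval over both. Its ratio of cluster 1 to cluster 2 was 2.56 (2.02 to 3.26). Alox12b, the lipoxygenase that oxidises ceramide-bound linoleate, lies on chromosome 11 from 69156989 to 69169792 (plus strand) and had 694, 371 and 27 UMIs. Its rates were 8.11 (7.51 to 8.73), 2.74 (2.47 to 3.03) and 3.71 (2.44 to 5.40). The ratio of cluster 1 to cluster 2 was 2.96 (2.60 to 3.37), with an interval above those of Elovl1 and Elovl4 and overlapping those of Abca12, Nkpd1 and Fam57a.

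The rest of the pathway was read from a list of 55 barrier lipid genes, the 6 included, of which 13 were listed in the WT table. Among the 7 others, 4 were higher and 2 lower in cluster 1 at a deposited p-value under 0.05, against 33.2% of all listed genes higher and 43.7% lower, and their median was 1.20 on the log2 scale in the authors' deposited table. Those higher included Aloxe3, which acts on the product of Alox12b, at 1.77, the glucosylceramide synthase gene Ugcg at 1.25 and the ceramide synthase gene Cers3 at 1.20, in the authors' deposited table. Degs1, the desaturase of general ceramide synthesis, was lower at -0.37, and Psap, the precursor of the saposins that assist lysosomal lipid breakdown, was lower at -1.03, in the authors' deposited table. Cyp4f39, the mouse counterpart of the human omega-hydroxylase gene CYP4F22, had 0.20 at p = 0.358 in the authors' deposited table. Its rates were 2.65 (2.32 to 3.02) and 2.34 (2.09 to 2.61) in clusters 1 and 2, with overlapping intervals. The barrier lipid genes were therefore not uniform, and Psap had 1.89 UMIs per 10000 (1.61 to 2.21) in cluster 1 against 3.97 (3.64 to 4.32) in cluster 2. Aloxe3 had passed the listing limit through cluster 1 alone.

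**Figure D2:**
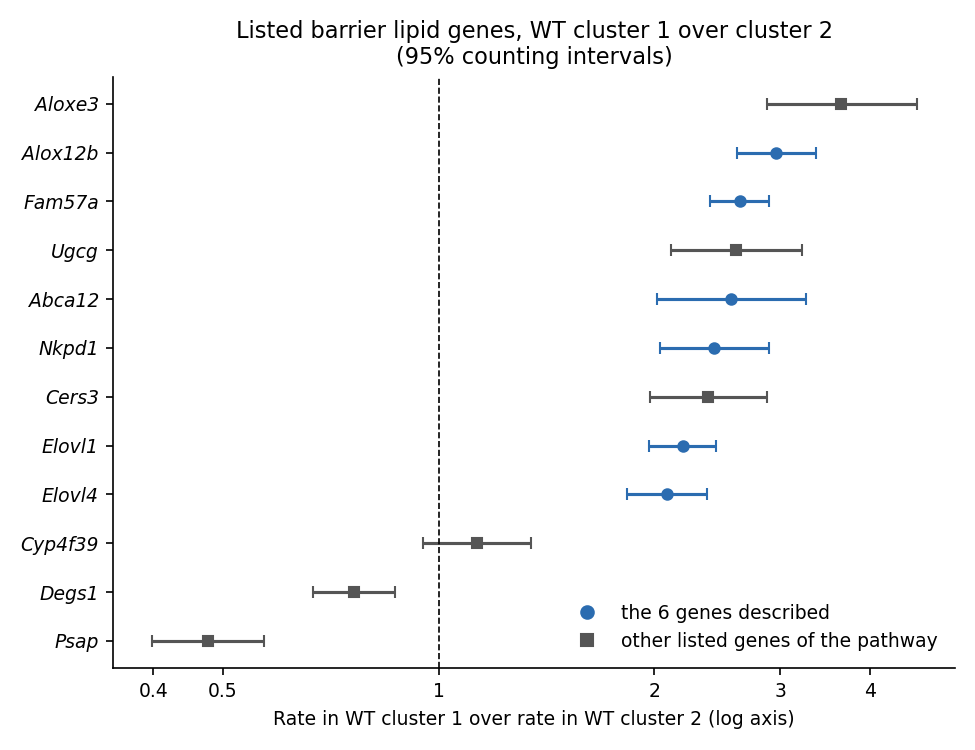
Ratio of the rate in WT cluster 1 to that in WT cluster 2 (horizontal log axis) for listed barrier lipid genes, with exact conditional 95% intervals for counting error. The 6 genes (circles) lie between 2.08 for Elovl4 and 2.96 for Alox12b, while Cyp4f39, Degs1 and Psap (squares) lie at 1.13, 0.763 and 0.477.

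Genes of wider lipid handling were split, as were the listed genes as a whole. Of 36 such genes, 6 were listed in the WT table, with 3 called higher in cluster 1 and 2 called lower. The background there was 33.2% of all listed genes higher and 43.7% lower, so the split is not particular to this list. In cluster 1, Pla2g4b, a cytosolic phospholipase, was higher at 2.22, Dgat2, which makes triglycerides, at 1.32 and the cholesterol sulfotransferase gene Sult2b1 at 0.58, in the authors' deposited table. Fabp5, a fatty acid carrier of keratinocytes, and the acyl-CoA carrier gene Dbi were lower, at -0.65 and -0.49 in the authors' deposited table. Fdps, of sterol synthesis, had 0.27 at p = 0.237 in the authors' deposited table. Pla2g4b, Sult2b1 and Fdps were listed through cluster 1 alone, so that their highest place was fixed by the listing. Fabp5, the one gene of this list that was also listed for the H3K36M section, had 105 UMIs per 10000 (102 to 109) in cluster 2 there against 77.5 (73.6 to 81.5) in cluster 3.

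The genes nearest to the 6 in their deposited log2 fold changes over the 3 WT clusters included envelope and protease genes. Likeness was the largest absolute difference over the clusters, given without a test. For Alox12b these were Hopx (0.17), the envelope gene Sprr3 (0.19) and Vsig10l (0.22), and for Elovl1 they were Hebp2 (0.01), the envelope cross-linker gene Tgm1 (0.07) and Metrnl (0.08). For Elovl4 they were the protease gene Tmprss11d (0.12), Serpinb12 (0.15) and the kallikrein gene Klk10 (0.15). For Abca12 they were Dgat2 (0.04), the envelope gene Sprr2i (0.09) and Cers3 (0.11). Cers3 (0.03) and Sprr2i (0.06) were also nearest to Nkpd1, followed by Qsox1 (0.06), and Qsox1 (0.10) and Nudt4 (0.10) were nearest to Fam57a. With 3 clusters, of which 2 hold most UMIs, such likeness rests on little more than 1 contrast.

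In the H3K36M section, the 4 listed genes had their highest rates in cluster 3, the region rich in envelope genes, and their lowest combined rate in cluster 4. Each of the 4 passed the listing limit through cluster 3 alone, so that their highest place was fixed by the listing and is given as a description. Their summed rates in clusters 1 to 4 were 13.3 UMIs per 10000 (8.43 to 20.0), 14.3 (13.0 to 15.7), 38.0 (35.3 to 40.8) and 6.60 (4.60 to 9.18). The intervals of clusters 1 and 2 overlapped, and cluster 4 lay below that of cluster 2. In the authors' deposited table, 4 of 4 were higher in cluster 3 at a p-value under 0.05, where 23.5% of all listed genes were. In cluster 4, Alox12b, Elovl1 and Fam57a were lower, against 36.2% of all listed genes, and in cluster 2, Alox12b, Elovl1 and Nkpd1 were lower and 0 of 4 higher, against 30.5% of listed genes lower and 33.9% higher, in the authors' deposited table. In cluster 1, 0 of 4 were called, against 4.36% of listed genes higher and 6.38% lower.

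Alox12b was at 1 UMI in clusters 1 and 4 of this section. It had 1, 79, 168 and 1 UMIs in H3K36M clusters 1 to 4, at rates of 0.578 (0.0146 to 3.22), 2.58 (2.04 to 3.21), 8.66 (7.40 to 10.1) and 0.189 (0.00477 to 1.05). With 1 UMI in cluster 4, the ratio of cluster 3 to cluster 4 was 45.9, with an interval from 8.13 to 1825. The log2 fold change of Alox12b in clusters 3 and 4 was 1.997 and -3.71, in the authors' deposited table. Elovl1 had 7, 116, 191 and 11 UMIs, at rates of 4.05 (1.63 to 8.34), 3.78 (3.13 to 4.54), 9.85 (8.50 to 11.3) and 2.07 (1.04 to 3.71). Its ratio of cluster 3 to cluster 4 was 4.75 (2.59 to 9.67), an interval that overlaps that of Alox12b.

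Between clusters 3 and 2, the ratio was lowest for Fam57a and highest for Nkpd1 of the 4 genes. Fam57a had 6, 166, 173 and 12 UMIs in H3K36M clusters 1 to 4, at rates of 3.47 (1.27 to 7.55), 5.42 (4.62 to 6.30), 8.92 (7.64 to 10.4) and 2.26 (1.17 to 3.95). Its ratio of cluster 3 to cluster 2 was 1.65 (1.32 to 2.05). Fam57a was not called in cluster 2, where its log2 value was -0.41 at p = 0.160 in the authors' deposited table. Nkpd1 had 9, 76, 205 and 11 UMIs, at rates of 5.21 (2.38 to 9.88), 2.48 (1.95 to 3.10), 10.6 (9.17 to 12.1) and 2.07 (1.04 to 3.71), and its ratio of cluster 3 to cluster 2 was 4.26 (3.26 to 5.62). The intervals of Fam57a and Nkpd1 did not overlap. Alox12b, at 3.36 (2.56 to 4.45), and Elovl1, at 2.60 (2.06 to 3.31), lay between them.

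Nkpd1 also differed in its deposited p-value from most genes of a like log2 fold change in H3K36M cluster 3. Its log2 fold change in H3K36M cluster 3 was 2.04 on 205 UMIs, close to the 1.997 of Alox12b on 168 UMIs, but its p-value was 3.6e-06 against 2.1e-22 for Alox12b, in the authors' deposited table. Of the 26 genes at a log2 value of 1.5 or more in that cluster, Krt80 alone had a larger p-value than Nkpd1, and the next below was Klk8 at 8.4e-16 on 149 UMIs, in the authors' deposited table. In the WT section the p-values of Nkpd1, 8.4e-20 on 334 UMIs, and Elovl4, 5.8e-22 on 555 UMIs, lay close together in the authors' deposited table. The values of single spots were not analysed here, so the spread of Nkpd1 between spots was not measured.

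In this section, the nearest genes by log2 fold changes over 4 clusters were Lor (0.33), Sprr1b (0.75) and the desmosomal gene Dsg1a (0.88) for Alox12b. For Elovl1 they were Klk8 (0.34), Ly6g6c (0.50) and Crct1 (0.53), for Fam57a Sprr3 (0.30), Krtdap (0.34) and Ly6g6c (0.37), and for Nkpd1 Klk8 (0.68), Wfdc12 (0.69) and Elovl1 (0.71). The differences were larger than in the WT section. This section had more clusters, fewer UMIs and 298 listed genes to draw from against 865, and the part of each was not tested.

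Placed side by side, the envelope-rich regions of both sections held close rates of Alox12b and Elovl1, a lower rate of Fam57a and a higher rate of Nkpd1 in the H3K36M section. Nkpd1 had 10.6 UMIs per 10000 in H3K36M cluster 3 against 3.90 in WT cluster 1, a ratio of 2.71 (2.27 to 3.23). Nkpd1 entered the H3K36M table through cluster 3 alone, which takes a rate of 7.24, so that with its WT rate the listing fixed the direction and allowed no ratio under 1.86. For Alox12b, Elovl1 and Fam57a the lowest ratio that the listing allowed was 0.894, 0.749 and 0.537. Fam57a had 8.92 against 13.5, a ratio of 0.661 (0.560 to 0.776). The ratio was 1.07 (0.898 to 1.27) for Alox12b and 1.02 (0.866 to 1.19) for Elovl1, and both intervals include 1. Over the 284 genes in both tables the median ratio was 1.10, with quartiles of 0.757 and 1.47. Nkpd1 ranked 11 of 284 from the highest and Fam57a 231. The rank of Nkpd1 is partly set by the listing. Of the 284 genes, 59 were below 7.24 in each WT cluster and were listed for the H3K36M section through a higher rate there. Among these 59, whose median ratio was 1.37, Nkpd1 ranked 7. Of the 284 genes, 7.39% were at least 2-fold higher and 9.51% at least 2-fold lower in H3K36M cluster 3.

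The 31 envelope protein and squamous keratin genes in both tables had a median ratio of 0.755 between these regions, from 0.144 to 1.77, and 5 of them lay above 1. Of these 31, 1 was below 7.24 in each WT cluster, as Nkpd1 was, so their ratios and that of Nkpd1 were not selected alike. The highest ratio of all, 6.30, was that of the basal keratin gene Krt15. These regions were clustered and scaled separately, and genotype, depth and the piece of tongue sampled cannot be told apart. Muscle genes were at 27.4 UMIs per 10000 (26.3 to 28.6) in WT cluster 1 and 37.0 (34.3 to 39.8) in H3K36M cluster 3, and the basal keratin genes differed in direction. Krt14 was at 82.3 (80.3 to 84.2) in WT cluster 1 and 46.4 (43.4 to 49.5) in H3K36M cluster 3, while Krt5 was at 13.3 (12.6 to 14.1) and 19.9 (17.9 to 21.9), and Krt15 at 2.52 (2.20 to 2.88) and 15.9 (14.2 to 17.8). The part of muscle and basal genes in the ratios was not tested.

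**Figure D3:**
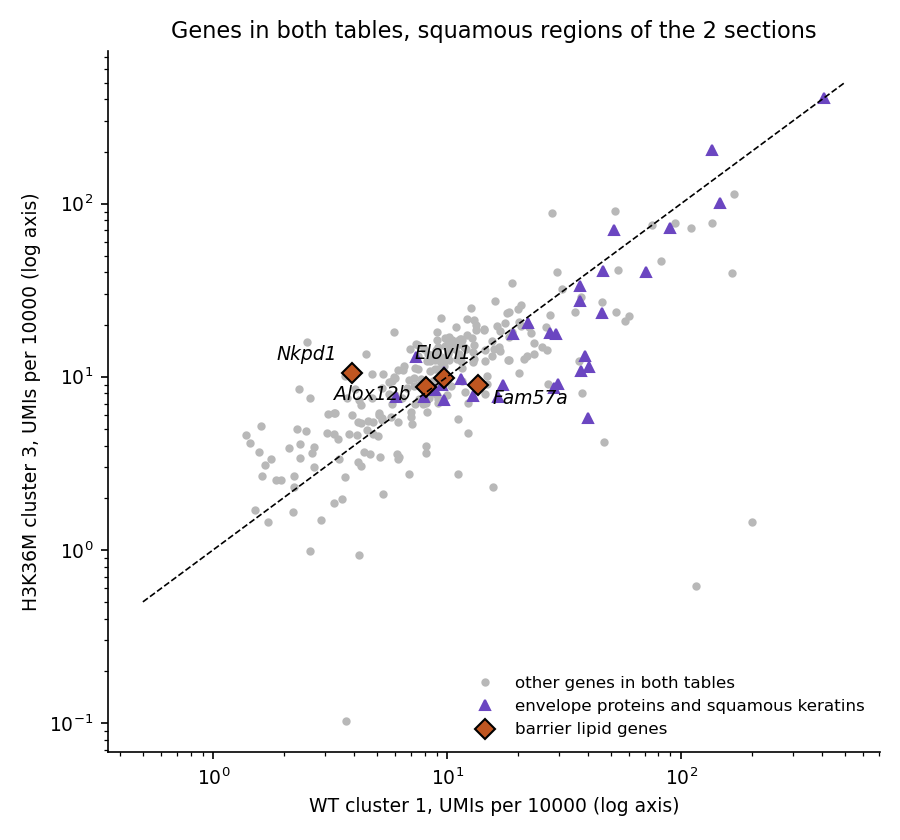
UMIs per 10000 in WT cluster 1 (horizontal log axis) and H3K36M cluster 3 (vertical log axis) for the 284 genes in both tables, with the dashed line at equal rates. Nkpd1 lies above the line at 3.90 and 10.6, Fam57a below it at 13.5 and 8.92, and Alox12b and Elovl1 on it, while most envelope and squamous keratin genes (triangles) lie below. The listing fixed the side of the line on which Nkpd1 lies.

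The clusters numbered 2 share a number and were not matched as regions. The 10 muscle genes were at 22.6 UMIs per 10000 in WT cluster 2 and 83.9 in H3K36M cluster 2. The 3 basal keratin genes together were at 134 and 87.1, a sum made up mostly of Krt14, at 92.8 and 44.8. Krt5 was at 32.7 and 25.9, while Krt15 went the other way, at 8.79 and 16.4. Between these clusters the ratio of Nkpd1 was smaller. There, Nkpd1 had 2.48 UMIs per 10000 in the H3K36M section and 1.61 in the WT section, a ratio of 1.54 (1.17 to 2.01). Fam57a had a ratio of 1.06 (0.885 to 1.25), Alox12b 0.941 (0.728 to 1.20) and Elovl1 0.857 (0.696 to 1.05), and these 3 intervals include 1. Over whole sections, Nkpd1 had 5.27 UMIs per 10000 (4.69 to 5.90) against 2.50 (2.30 to 2.71), a ratio of 2.11 (1.83 to 2.43). H3K36M cluster 3, through which Nkpd1 was listed, held 68.1% of its UMIs in that section, so this whole-section ratio is partly set by the listing. Fam57a had 6.25 (5.62 to 6.94) against 8.43 (8.06 to 8.82), a ratio of 0.742 (0.661 to 0.831). Alox12b, at 4.36 against 4.78, and Elovl1, at 5.69 against 6.41, had ratios of 0.912 (0.792 to 1.05) and 0.888 (0.785 to 1.002). Over the 284 genes in both tables, the median whole-section ratio was 1.01, with quartiles of 0.798 and 1.24. For the 31 envelope protein and squamous keratin genes it was 0.677. Between the clusters numbered 2, these medians were 0.962 and 0.799.

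The share of each gene among the 4 leaves out the other transcripts of a cluster. Nkpd1 made up 11.1% (10.0 to 12.3) of the UMIs of the 4 genes in WT cluster 1. In WT clusters 2 and 3 its share was 11.6% (10.2 to 13.1) and 12.03% (7.40 to 18.1). In H3K36M clusters 1 to 4 its share was 39.1% (19.7 to 61.5), 17.4% (14.0 to 21.3), 27.8% (24.6 to 31.2) and 31.4% (16.9 to 49.3). Each H3K36M cluster thus had a higher share of Nkpd1 than any WT cluster, although the intervals of H3K36M clusters 2 and 4 overlap that of WT cluster 3. To be listed, Nkpd1 needed a higher rate in H3K36M cluster 3 than in WT cluster 1, and Alox12b, Elovl1 and Fam57a did not. The share of Nkpd1 in H3K36M cluster 3 was thus partly set by the listing. The share of Fam57a was 38.4% (36.6 to 40.1) in WT cluster 1 and 23.5% (20.5 to 26.7) in H3K36M cluster 3. It was 36.9% (34.7 to 39.2) in WT cluster 2 and 38.0% (33.4 to 42.7) in H3K36M cluster 2, which are not matched regions. With Nkpd1 left out of the sum, Fam57a still had 43.2% in WT cluster 1 and 32.5% in H3K36M cluster 3. Alox12b made up 2.86% (0.0723 to 14.9) in H3K36M cluster 4, on 1 of 35 UMIs, and 22.8% (19.8 to 26.0) in cluster 3.

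**Figure D4:**
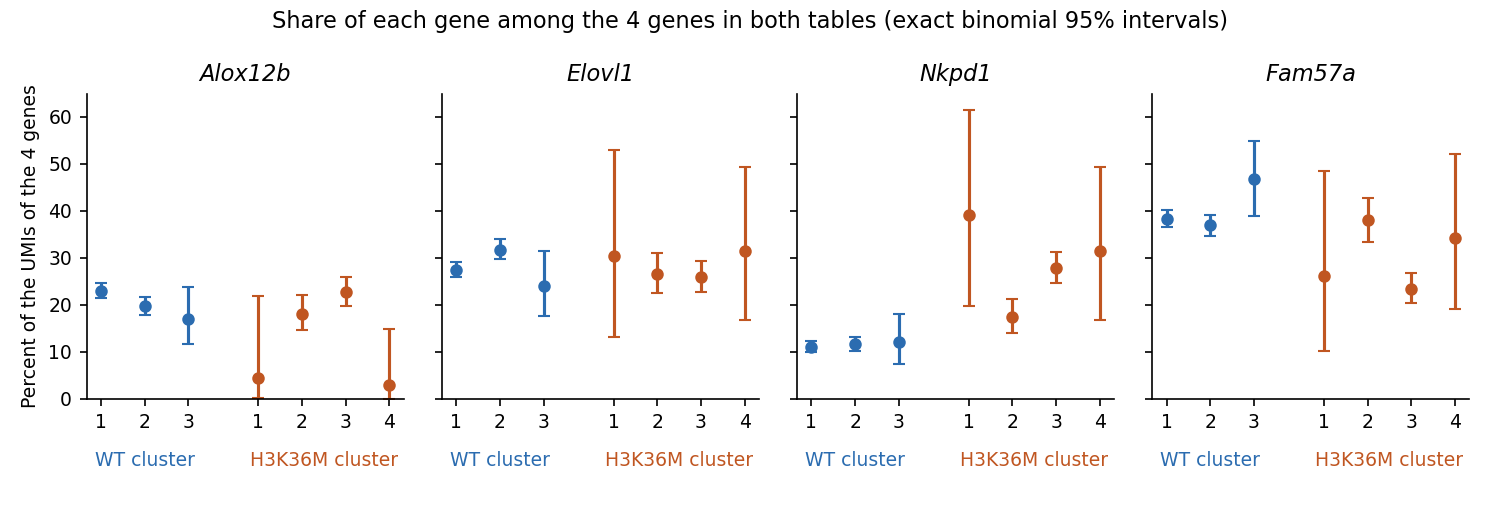
Percent of the UMIs of Alox12b, Elovl1, Nkpd1 and Fam57a together that each gene took (vertical axis) in the WT clusters (blue) and H3K36M clusters (orange), with exact binomial 95% intervals for counting error. Nkpd1 stays between 11.1% and 12.03% in the WT clusters and lies between 17.4% and 39.1% in the H3K36M clusters, and Fam57a is lower in H3K36M cluster 3 than in cluster 2 of either section. Nkpd1 was listed for the H3K36M section through cluster 3 alone, so its share there is partly set by the listing.

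Elovl4 and Abca12 were listed in the WT table alone. Their highest WT rates, 6.48 and 2.17 UMIs per 10000, lay below the 7.24 at which a gene entered the H3K36M table, so the same rate would not have listed them there. Of the 13 barrier lipid genes of the WT table, 9 were not listed for the H3K36M section, and each of the 9 had WT rates below that limit. Nkpd1 was the 1 of 10 barrier lipid genes below the limit in the WT section that was listed for the H3K36M section. Over the whole WT table, 59 of 599 genes below the limit (9.85%) were listed for the H3K36M section, as were 225 of 266 genes above it (84.6%). No level of Elovl4 or Abca12 in the H3K36M section can be drawn from this.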

How the data were processed

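Spatial transcriptomes of 2 tongue sections were used, grouped by sample title. The cluster columns name no sample, and each cluster table was assigned to its section because its name holds that section's title. Space Ranger was run on GRCm38 (mm10), per the submitters' processing notes. Neither its version nor its clustering settings are stated there. The authors deposited, per the file headers, counts of spots and reads, signal values per spot and each quality measure as a fraction. For each gene and cluster, their tables hold a signal (the cluster average), a log2 fold change and its p-value, per the file headers. The headers state neither the reference spots nor any adjustment. Whole sections gave 37219042 (WT) and 29810232 (H3K36M) reads.

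Within a cluster, every average (100%) was a whole multiple of 1 step (within 0.01). The deposited log2 fold changes matched a cluster against all other clustered spots, with 1 UMI and 1 size factor added to each side. This gave the UMIs. The scale, a median of 5027 UMIs per clustered spot (WT) and 1380.5 (H3K36M), is the smallest that makes cluster totals whole. The deposited medians under tissue are 4899 and 763.5, so the clustered spots may be another set, and rates rest on this reading. Intervals are exact (Poisson, conditional or binomial) at 95%. The recovery was tested on simulated tables made with the same formula and the recovered totals, so that test does not check the scale. No test over spots was run, since spots are not replicates.

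Members and lists were chosen with earlier results of these data known. Named genes were the 6 members, listed genes of the lipid lists, the 3 nearest genes per member and up to 4 examples per list. One listed gene, kept in the counts, is not reported here by name. Krt4 and Krt13 were named outside this rule, and the p-values of Krt80 and Klk8 were set beside that of Nkpd1 after they had been seen. The other lists served as markers of cell types. Positions came from GENCODE M21, which held 879 of 879 identifiers. Python 3.11.15, numpy 2.4.6, pandas 2.3.3, scipy 1.17.1 and matplotlib 3.10.9 were used. Alternatives were other denominators, p-value and fold thresholds, a minimum average and other sets of clusters.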

Additional observations from a re-analysis of the deposited data

How the results depend on the processing

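The ratios of WT cluster 1 to cluster 2 for the 6 genes were recomputed under 4 alternatives. The ratio of deposited averages equals the main value by construction. Other denominators scale the ratio of every gene alike. Taking all other clusters as reference adds cluster 3, with 3.19% of the WT UMIs. Ratios of this size could hardly change direction under these settings, so the kept direction is no check. The ratios ran from 1.91 for Elovl4 without ribosomal protein and mitochondrially encoded genes to 3.08 for Alox12b without keratin and keratin-associated protein genes. The ratio of H3K36M cluster 3 to WT cluster 1 for Nkpd1 was 2.75 and 2.62 under the same denominators, and that of Fam57a 0.671 and 0.639. That of Elovl1, whose interval includes 1, was 1.03 and 0.985, on either side of 1. These region ratios were chosen after the data were seen. With a minimum average of 2 in some cluster, 4 barrier lipid genes instead of 10 were higher in WT cluster 1, and 0 instead of 4 in H3K36M cluster 3, both for the 4 genes described and for the whole list, since fewer genes were then tested. With a minimum log2 fold change of 1, 3 instead of 4 genes were higher in H3K36M cluster 3, and Fam57a lost its call. Without the 6 genes the list had 4 higher in WT cluster 1 and 0 in H3K36M cluster 3. No paired analysis was possible because each genotype had 1 section. Depth also limits the H3K36M section, whose clusters 1 and 4 held 23 and 35 UMIs of the 4 genes.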
